A study of Mus musculus with 2 samples.

Results

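The serum amyloid A genes Saa1, Saa2, Saa3 and Saa4, the orosomucoid genes Orm1, Orm2 and Orm3, haptoglobin (Hp), lipocalin 2 (Lcn2) and serum amyloid P (Apcs) were followed in hepatocytes of mice given carbon tetrachloride (CCl4). These 10 genes are 10 of the 20317 genes that the mRNA table names. They were chosen by name as acute phase proteins, with their read densities in these same libraries already known, so their levels and differences are given as a description and carry no test. The study injected wild type male C57BL/6J mice, 5 weeks old when obtained, intraperitoneally with CCl4 to induce liver fibrosis and asked which transcripts differ in the hepatocytes. CCl4 was given as a 20% solution in mineral oil at 2.5 ml of CCl4 per kg body weight, with repeated doses over 8 weeks by the labels and a shorter course by the methods, and the controls received oil. Primary hepatocytes were isolated by perfusion of the liver with proteases and a density gradient, a preparation of cells from many lobules that can carry along other liver cells. RNA-seq was made of 1 oil library and 1 CCl4 library, and how many mice each one pools is not given in the sources used here. With 1 library per group there is no replicate check of any difference, no p-value is given, and an effect of CCl4 cannot be told apart from any other difference between these preparations.

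Acute phase proteins are plasma proteins whose production by the liver changes during inflammation, infection and tissue injury. Interleukin 6, acting through its receptor and STAT3, and interleukin 1 and tumour necrosis factor, acting through NF-kB, reach the hepatocyte from macrophages and other cells, and the C/EBP factors act with them on the promoters. Serum amyloid A proteins ride on high-density lipoprotein and are the precursors of amyloid fibrils, orosomucoids are glycoproteins that bind drugs and lipids in plasma, haptoglobin captures free haemoglobin, lipocalin 2 withholds iron from bacteria by binding their siderophores, and serum amyloid P is a pentraxin found in all amyloid deposits.

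The 10 genes lie at 5 places in the mouse genome, with positions from the RefSeq annotation of GRCm38.p6. Saa1 to Saa4 fill 42316 bases at chr7:46711998-46754313, and Orm1 to Orm3 fill 21322 bases at chr4:63344556-63365877. Hp lies at chr8:109575128-109579172, Lcn2 at chr2:32384637-32387739 and Apcs at chr1:172893961-172895054. Promoter windows from 250 bases before to 50 bases after the transcription start were found in RefSeq for 8 of the 10 genes, and Orm1 and Hp had no entry. The windows of Saa1, Saa2, Saa3 and Orm2 are printed because these 4 hold the steepest decreases of the group and its only increase. Capitals mark matches, on either strand, to TTNNGNAA for C/EBP and to TATAAA for the TATA box. The windows are at chr7:46742931-46743230 on the minus strand for Saa1, chr7:46751583-46751882 on the plus strand for Saa2, chr7:46715627-46715926 on the minus strand for Saa3 and chr4:63362199-63362498 on the plus strand for Orm2. For Saa1 and Saa3 the start used lies inside the annotated span of the gene. Each sequence is written 5′ to 3′.
Saa1: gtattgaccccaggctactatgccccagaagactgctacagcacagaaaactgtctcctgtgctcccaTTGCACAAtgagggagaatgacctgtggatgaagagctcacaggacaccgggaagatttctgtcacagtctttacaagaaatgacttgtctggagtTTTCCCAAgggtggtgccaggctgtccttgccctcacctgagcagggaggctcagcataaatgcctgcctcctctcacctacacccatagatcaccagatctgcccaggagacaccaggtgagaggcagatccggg
Saa2: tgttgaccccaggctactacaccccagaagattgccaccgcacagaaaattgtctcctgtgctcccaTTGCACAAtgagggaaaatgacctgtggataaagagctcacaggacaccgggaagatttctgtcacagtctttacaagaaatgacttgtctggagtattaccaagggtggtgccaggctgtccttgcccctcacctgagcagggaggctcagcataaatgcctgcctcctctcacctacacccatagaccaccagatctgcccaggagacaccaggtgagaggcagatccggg
Saa3: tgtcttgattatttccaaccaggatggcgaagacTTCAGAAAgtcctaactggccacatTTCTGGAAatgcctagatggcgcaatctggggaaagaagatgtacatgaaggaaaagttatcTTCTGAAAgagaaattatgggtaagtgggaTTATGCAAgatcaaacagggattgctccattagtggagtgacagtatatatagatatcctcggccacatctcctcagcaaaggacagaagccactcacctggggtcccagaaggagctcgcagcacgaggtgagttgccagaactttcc
Orm2: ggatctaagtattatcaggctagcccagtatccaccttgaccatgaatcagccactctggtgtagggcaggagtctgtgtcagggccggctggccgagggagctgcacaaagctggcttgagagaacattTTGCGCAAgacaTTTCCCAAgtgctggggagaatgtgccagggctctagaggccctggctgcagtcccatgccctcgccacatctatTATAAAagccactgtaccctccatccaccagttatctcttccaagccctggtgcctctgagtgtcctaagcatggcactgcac

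The Saa1 and Saa2 windows were the closest pair, with 287 of 301 aligned positions identical (95.35%). Orm2 and Orm3 followed with 264 of 305 (86.56%), while every other pair among the 8 windows, Saa3 with Saa1 or Saa2 included, lay between 47.24% and 54.24%. The C/EBP letters occurred in 7 of the 8 windows, the exception being Apcs, and in 40.68% of 32851 RefSeq windows of the same length. Nothing is read from this contrast, since the letters were chosen with the promoters in view. The 8 windows also hold the close pairs Saa1 with Saa2 and Orm2 with Orm3. Saa3 held 4 such matches, beginning 216, 191, 129 and 99 bases before the start. Saa1 and Saa2 shared the match TTGCACAA, which begins 182 bases before the start in Saa1 and 183 bases before it in Saa2, and Orm3 held the same 8 bases 121 bases before its start. Saa1 held a further match 86 bases before the start. The letters TTCNNNGAA of a STAT site occurred in the Apcs window alone, 244 bases before the start, and in 8.298% of all windows. TATAAA stood 33 bases before the start in Orm2 and 29 bases before it in Orm3, and in 13.62% of all windows. A match is a description of the letters and not evidence of a site, and a window without one shows only that these letters are not in it.

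Levels are given as RPKM, the reads per kilobase of transcript scaled to library size, so that genes of different length can be compared, and differences as log2(CCl4/oil) with 0.1 RPKM added to both levels. A gene is called lower or higher where this difference reaches 1, a fold of 2. Of the 10 genes 9 were lower in the CCl4 library and 1, Saa3, was higher. Among the 10689 genes with a level above 0 in both libraries, 586 (5.48%) were lower and 1527 (14.3%) were higher by the same rule. Since these values had led to the choice of the genes, nothing is read from the contrast between the shares. The median difference of the 10 genes was -2.54 and that of all genes compared was 0.30. Together the 10 genes held 9616 RPKM, 2.30% of the summed level of all genes, with oil and 1657 RPKM, 0.460%, with CCl4, a sum 5.80-fold lower. Without Saa1 and Saa2 the sum was 2.76-fold lower. In RNA from a whole preparation, fewer cells of a type and less RNA per cell cannot be told apart.

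The depth came out of the steps between RPKM values and was 57992700 reads for oil and 64656900 reads for CCl4. Each of the 10 genes was covered by at least 434 reads with oil and 63 reads with CCl4. The 95% intervals given with the differences are exact intervals for counting error only, and they say nothing of the spread between mice. For the 10 genes they rest on these lowest read numbers, and higher numbers would make them narrower. The balance of calls over all genes depends on the scaling. Lower genes were 27.7% of all calls as deposited, 54.9% when the median gene was set to no difference and 0.646% when the hepatocyte markers were. With the median gene at no difference 9.71% of the genes compared were lower and 7.99% higher, and with the hepatocyte markers so 0.486% were lower and 74.9% higher, and the counts given for gene lists are to be read against these shares. These scalings add -0.30 or 1.17 to every difference, so a difference between -1.17 and 0 changes sign under the hepatocyte scaling. Hp and Apcs lost their call under it, whereas the remaining 7 lower genes and Saa3 kept theirs under every scaling tried.

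**Figure D1:**
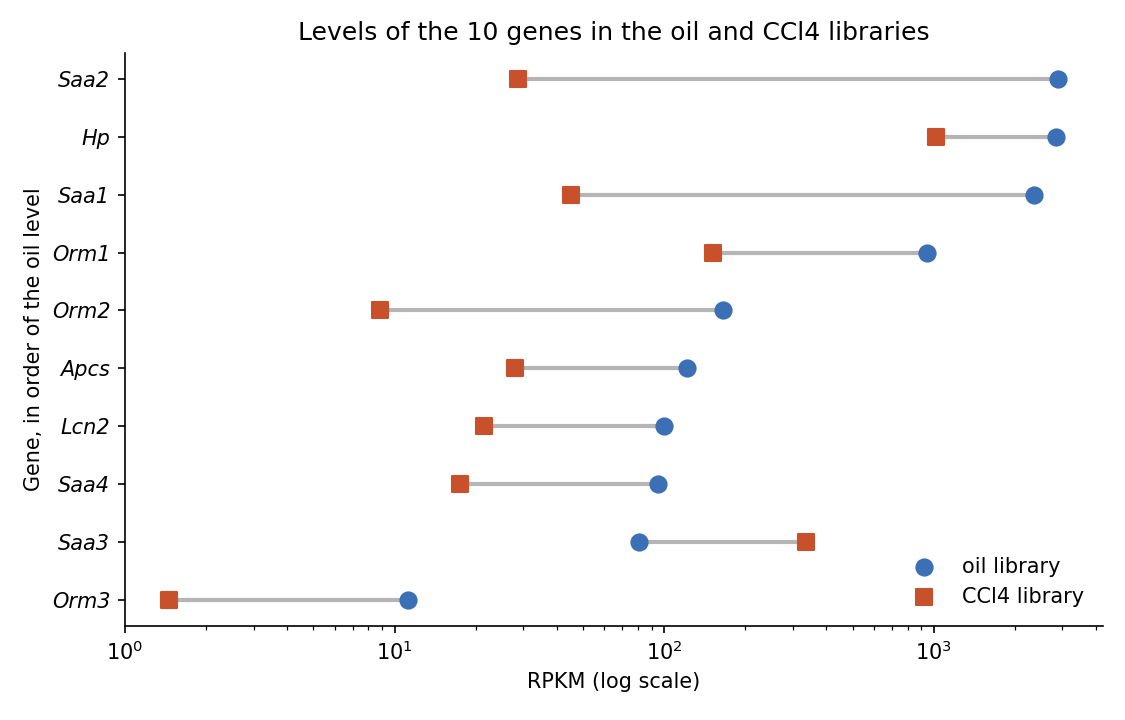
Level of each of the 10 genes in the oil library (circles) and the CCl4 library (squares) on a log axis of RPKM, ordered by the oil level, with a line joining the libraries. The squares lie left of the circles for 9 genes and right of the circle for Saa3, which went from 80.5 to 337 RPKM.

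Serum amyloid A showed the widest range of the group. Saa2, with Saa1 the main circulating form in acute inflammation, stood at 2894 RPKM with oil and 28.8 RPKM with CCl4. This is a 100.6-fold lower level, a log2 difference of -6.65 (95% counting interval of the read ratio -6.80 to -6.51), and it moved Saa2 from rank 8 to rank 1528 among all genes. Saa1 stood at 2359 RPKM with oil and 45.3 RPKM with CCl4. It was 52.1-fold lower, with a log2 difference of -5.70 (-5.82 to -5.59), and went from rank 14 to rank 945. Both were thus among the most abundant mRNAs of the oil library and no longer so in the CCl4 library. Only 2 of the 10689 genes compared were lower by a larger log2 difference than Saa2, and Saa1 came next after Saa2. The Saa2 to Saa1 ratio turned from 1.23 to 0.635.

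The pair Saa1 and Saa2 are almost identical in sequence, and how the authors' counting divided shared reads between them is not given in the sources used here, so their sum is the firmer value. It was 5253 RPKM, 1.26% of the summed level of all genes, with oil and 74.1 RPKM, 0.0205%, with CCl4, which is 70.9-fold lower. In the RefSeq table each of the pair also carries the other's symbol as an older synonym, and they are told apart here by their identifiers, NM_009117 for Saa1 and NM_011314 for Saa2.

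Saa4, the constitutive form that circulates without inflammation, had 95.1 RPKM with oil and 17.5 RPKM with CCl4. Its level was 5.45-fold lower, with a log2 difference of -2.44 (-2.58 to -2.32). The decrease was thus present in the constitutive member too and was smaller than that of Saa1 and Saa2.

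Saa3 went the other way from its 3 neighbours. It is the member that macrophages, fat cells and other cells outside the hepatocyte are known to make in mice. Its level was 80.5 RPKM with oil and 337 RPKM with CCl4, 4.18-fold higher, with a log2 difference of 2.06 (1.96 to 2.17). Saa3 moved from rank 619 to rank 103, and its increase ranked 172 among the genes compared. Saa1 exceeded Saa3 29.3-fold with oil, and Saa3 exceeded Saa1 7.43-fold with CCl4.

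The makeup of the family therefore turned over. In the oil library Saa1 and Saa2 made up 43.5% and 53.3% of the summed serum amyloid A level and Saa3 only 1.48%. In the CCl4 library Saa3 made up 78.6%, with Saa1 at 10.6%, Saa2 at 6.72% and Saa4 at 4.08%. The summed level of the 4 genes was 12.7-fold lower, from 5429 to 428 RPKM.

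**Figure D2:**
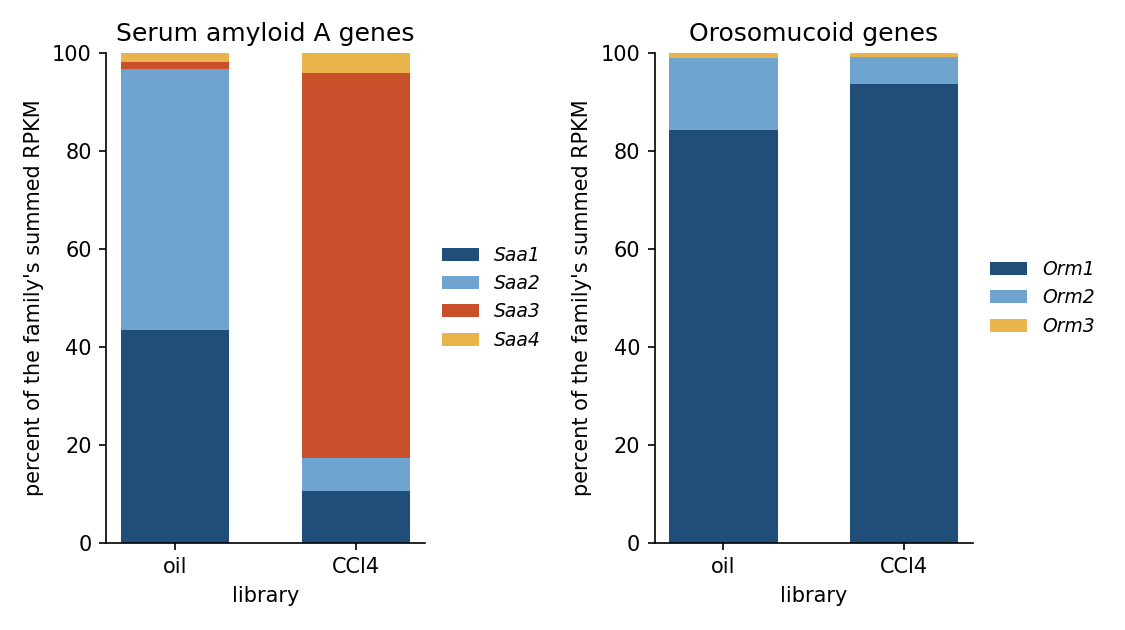
Share of each gene in the summed RPKM of its family, in percent, for serum amyloid A (left) and orosomucoid (right) in the oil and CCl4 libraries. Saa3 grows from 1.48% to 78.6% of its family, and Orm1 stays the main orosomucoid at 84.2% and 93.6%.

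Markers of other liver cells differed between the libraries alongside Saa3. Of 12 Kupffer cell and macrophage markers, 11 were matched and compared, 8 of them were higher and none lower (4 higher with the median gene at no difference), and their summed level went from 1786 to 4763 RPKM, 2.67-fold higher. Marco, a scavenger receptor of macrophages, went from 42.3 to 277.9 RPKM and Lyz2, their lysozyme, from 321.0 to 1645 RPKM. Clec4f, which marks Kupffer cells, stood at 282.6 and 254.5 RPKM, a difference of -0.15. Under the hepatocyte scaling all 11 markers were higher, Clec4f included at 1.01. All 11 stellate cell and myofibroblast markers that could be compared were higher (9 with the median gene at no difference), with a summed level of 87.2 RPKM with oil and 950 RPKM with CCl4, and 4 more (Hand2, Ngfr, Pdgfrb and Lox) were listed at 0 in the oil library only. Of 6 adipocyte markers, 5 were listed at 0 in both libraries and Cidec was at 2.11 RPKM in the oil library and listed at 0 in the CCl4 library. Sinusoidal endothelial markers summed to 635 and 1097 RPKM, with 2 of 10 higher as deposited, none with the median gene at no difference and 10 of 10 under the hepatocyte scaling, beside 14.3%, 7.99% and 74.9% of all genes. Cholangiocyte markers summed to 50.9 RPKM with oil and 170 RPKM with CCl4. Of the 4 compared 2 were higher as deposited, 1 with the median gene at no difference and 4 under the hepatocyte scaling. Erythroid markers summed to 3207 and 2152 RPKM, with 2 of 5 lower as deposited and none under the hepatocyte scaling. The part of these cells in the Saa3 level was not tested.

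The orosomucoids were lower as a family of 3. Orm1, the main form of the mouse liver, stood at 943 RPKM with oil and 151 RPKM with CCl4, 6.24-fold lower, with a log2 difference of -2.64 (-2.71 to -2.57). Orm2 stood at 165 RPKM with oil and 8.85 RPKM with CCl4, 18.7-fold lower, with a log2 difference of -4.21 (-4.45 to -4.01). Orm3 stood at 11.2 RPKM with oil and 1.46 RPKM with CCl4, 7.68-fold lower, with a log2 difference of -2.86 (-3.35 to -2.56). Orm2 thus had the largest log2 difference of the family in these libraries, a description that carries no test. Orm3 rested on the fewest reads of the 10 genes, and its CCl4 level lay close to the 1 RPKM below which the table lists 0.

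The order Orm1, Orm2, Orm3 was the same in both libraries while the ratios shifted. Orm1 exceeded Orm2 5.70-fold with oil and 17.1-fold with CCl4. These 3 genes are close copies too, and reads could be split between them. Their summed level went from 1120 RPKM to 161 RPKM and was 6.93-fold lower.

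Haptoglobin had the smallest decrease of the 9 lower genes. Hp stood at 2845 RPKM with oil and 1018 RPKM with CCl4, 2.79-fold lower, with a log2 difference of -1.48 (-1.51 to -1.45). It kept a place among the most abundant mRNAs, at rank 9 and rank 17. In the oil library it was nearly level with Saa2 at a ratio of 0.983, and in the CCl4 library it exceeded Saa2 35.4-fold. When the hepatocyte markers were set to no difference, Hp was at -0.32 and no longer called lower.

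Lipocalin 2 is made by hepatocytes in inflammation and stored in the granules of neutrophils. Lcn2 stood at 99.7 RPKM with oil and 21.4 RPKM with CCl4, 4.66-fold lower, with a log2 difference of -2.22 (-2.41 to -2.04). Of the 13 neutrophil markers 11 were compared, 2 of these were lower (Elane and Cxcr2) and 1 was higher (Retnlg), against 5 and 1 with the median gene at no difference and none and 4 under the hepatocyte scaling, and the summed level of the list went from 331 to 235 RPKM. S100a8 and S100a9, which neutrophils carry in abundance, stood at 114 and 163 RPKM in the oil library and at 65.2 and 91.5 RPKM in the CCl4 library. Mpo was at 3.11 RPKM in the oil library and listed at 0 in the CCl4 library. The part of neutrophils in the Lcn2 level was not tested.

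Serum amyloid P is the main acute phase pentraxin of the mouse, where C-reactive protein has a minor role. Apcs stood at 122 RPKM with oil and 28.0 RPKM with CCl4, 4.36-fold lower, with a log2 difference of -2.12 (-2.245 to -2.002). The other liver pentraxin, Crp, went from 155 to 39.7 RPKM with a log2 difference of -1.96, or -0.80 under the hepatocyte scaling. When the hepatocyte markers were set to no difference, Apcs was at -0.96 and just missed the call.

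The order of the 10 levels was reshaped. In the oil library Saa2, Hp and Saa1 led, followed by Orm1, Orm2, Apcs, Lcn2, Saa4, Saa3 and Orm3. In the CCl4 library Hp led, followed by Saa3, Orm1, Saa1, Saa2, Apcs, Lcn2, Saa4, Orm2 and Orm3. Saa3 climbed from the ninth place to the second, and Saa2 and Orm2 dropped the farthest. Neighbours such as Saa2 and Apcs in the CCl4 library, at 28.8 and 28.0 RPKM, are close, and with 1 library their order cannot be set against a spread between mice.

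**Figure D3:**
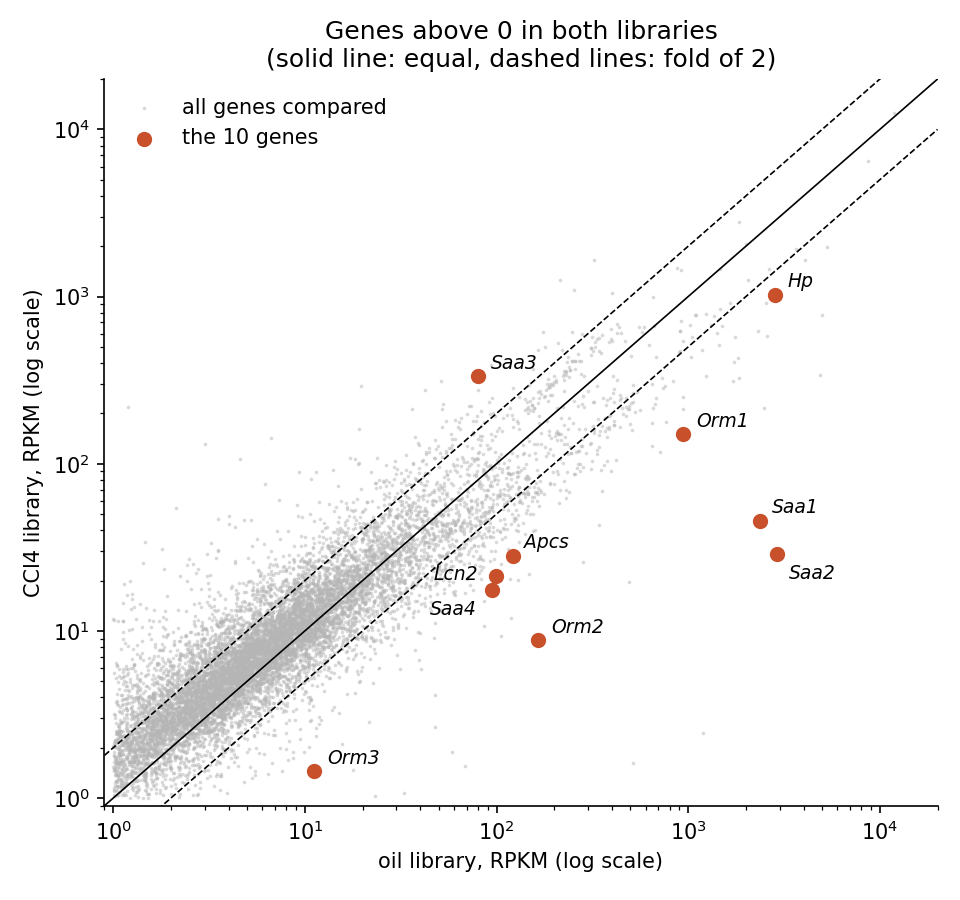
Level in the CCl4 library against the oil library, in RPKM on log axes, for the 10689 genes above 0 in both (grey) and the 10 genes (red), with a solid line of equal levels and dashed lines at a fold of 2. Saa1 and Saa2 lie far below the cloud. Orm2 lies well below the lower dashed line, with other genes closer to it, and Saa3 lies above the upper dashed line.

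Hepatocyte markers were checked against the label of the preparation and were abundant in both libraries. Alb stood at 8656 RPKM with oil and 6476 RPKM with CCl4. All 17 markers were nevertheless below 0 in their difference. Of these 10 were lower by a fold of 2 (16 with the median gene at no difference), and the median of the 17 was -1.16 as deposited. Of the 9 lower acute phase genes, all were below that median, and 6 (Saa2, Saa1, Orm2, Orm3, Orm1 and Saa4) were below Cyp2e1, the lowest of the markers at -2.33. Lcn2, Apcs and Hp lay within the range of the markers. The part of a smaller hepatocyte share in the decreases was not tested.

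The genes listed here as other positive acute phase proteins were mostly lower as deposited. Proteins of this class are made in greater amount during inflammation, but whether each listed gene behaves so in the mouse was not checked. Of 40 listed genes 37 were compared, 23 were lower, 1 was higher and 13 were neither, with a median of -1.56. With the hepatocyte markers at no difference 4 were lower, 4 were higher and 29 were neither, with a median of -0.39. Their summed level went from 31463 to 8170 RPKM. The fibrinogen chains, which form the clot, had differences of -2.09 for Fga, -2.15 for Fgb and -2.08 for Fgg, which missed the call under that scaling at -0.93, -0.99 and -0.91. The metallothioneins Mt1 and Mt2, which bind zinc, were at -2.45 and -2.53, and hemopexin (Hpx), the haem carrier that works beside haptoglobin, was at -1.47. Under the hepatocyte scaling Mt1 and Mt2 were still lower, at -1.29 and -1.37, and Hpx was at -0.30. The lowest of this list was the protease inhibitor Serpina1e, from 4890 to 339 RPKM at -3.85, and Saa2, Saa1 and Orm2 lay below it. As deposited, some acute phase genes did not reach a fold of 2, such as complement C3 at -0.59, the lipopolysaccharide carrier Lbp at -0.91 and hepcidin (Hamp), the iron hormone, with 184 and 181 RPKM, and under the hepatocyte scaling these were at 0.58, 0.25 and 1.14. The single gene higher as deposited was Hamp2, a second hepcidin gene, from 17.3 to 53.1 RPKM.

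Negative acute phase proteins, whose production drops in inflammation, depended on the scaling. As deposited all 14 were below 0, 5 of them were lower by a fold of 2, and the median was -0.89. With the median gene at no difference 11 were lower and the median was -1.20. With the hepatocyte markers set to no difference 11 were above 0 and none was called. Albumin (Alb) was at -0.42 and the thyroxine carrier Ttr at -0.71 as deposited, and at 0.75 and 0.45 under that scaling. The retinol carrier Rbp4 was at -1.06 and 0.10, and the lipoprotein Apoa1, which serum amyloid A joins on its particle, at -1.31 and -0.14. Positive and negative acute phase proteins thus had medians below 0 as deposited, whereas with the hepatocyte markers at no difference the medians were -0.39 and 0.27. Alb, Ttr, Trf and Apoa1 are both negative acute phase proteins and among the markers set to no difference, so the second median is partly fixed by that scaling.

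**Figure D4:**
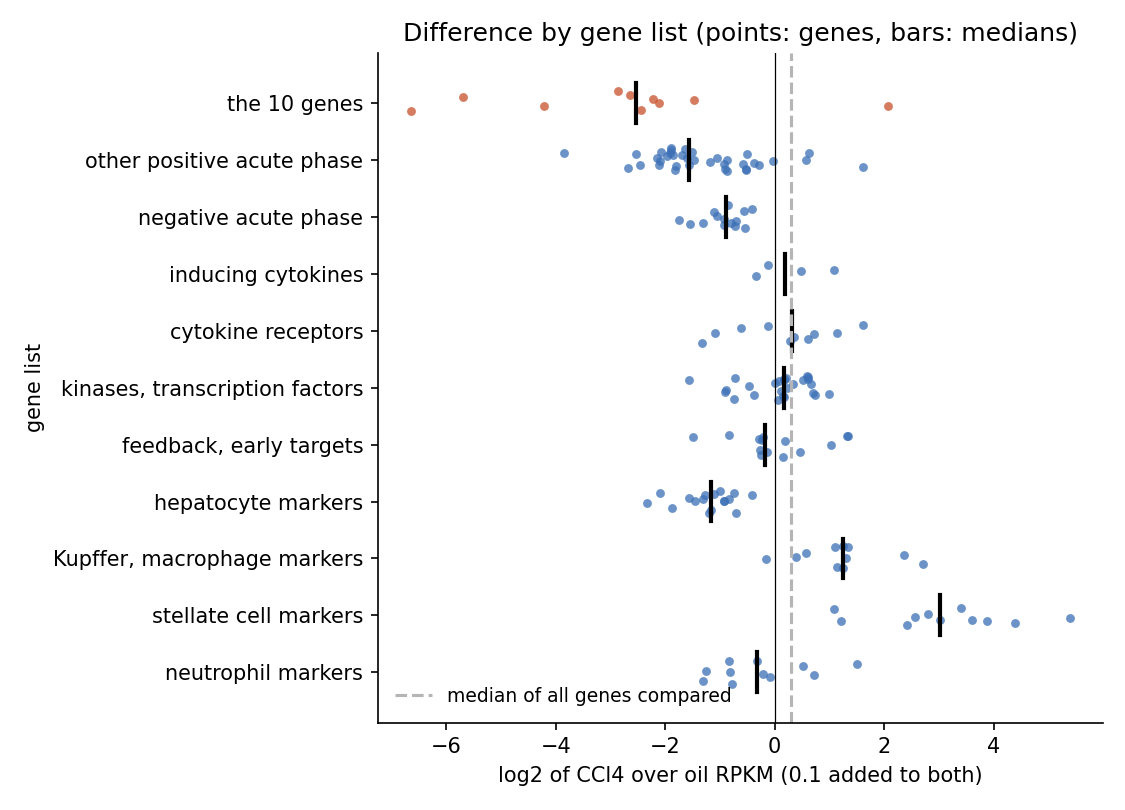
Log2(CCl4/oil) of the RPKM for the genes of each list (points) and the list's median (bars), with the median of all genes compared as a dashed line at 0.30. The 10 genes have the lowest median at -2.54, and the stellate cell markers the highest at 3.03.

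The cytokines that induce acute phase genes were scarce in both libraries. Of 11 listed, 6 (Il6, Tnf, Lif, Il11, Il22 and Cntf) were listed at 0 in both, which means below 1 RPKM. Il1b was at 13.0 RPKM with oil and 10.3 RPKM with CCl4. Il1a was higher, from 4.68 to 10.1 RPKM, and missed the call at 0.79 with the median gene at no difference and at 0.96 with 1 RPKM added. Of their receptors 10 were compared, 2 were lower and 2 higher as deposited, 2 were lower and 1 higher with the median gene at no difference, and none was lower and 7 higher under the hepatocyte scaling. The higher receptors are thus near the shares over all genes, 14.3% as deposited and 74.9% under the hepatocyte scaling. The interleukin 6 receptor Il6ra stood at 12.1 and 11.0 RPKM, with a difference of -0.13 as deposited and 1.03 under that scaling, and its signalling partner Il6st, also called gp130, stood at 67.4 and 103 RPKM. The interleukin 1 receptor Il1r1 and its partner Il1rap were lower, at -1.09 and -1.32, calls that were lost at 0.063 and -0.17 when the hepatocyte markers were set to no difference.

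Most factors that carry these signals were within a fold of 2 as deposited. Of 26 kinases, transcription factors and coactivators compared, 1 was lower, none was higher, and the median was 0.17. With the median gene at no difference 5 were lower and none higher, and with the hepatocyte markers at no difference none was lower, 19 were higher and the median was 1.32, beside 8001 higher genes of 10689 and a median of 1.45 over all genes under that scaling. Stat3 stood at 36.0 and 26.1 RPKM, and Cebpb, whose protein binds C/EBP sites, at 114 and 88.3 RPKM, with differences of -0.46 and -0.37 that became 0.70 and 0.79 under the hepatocyte scaling. The NF-kB subunits Rela and Nfkb1 had differences of 0.20 and 0.61 as deposited and of 1.36 and 1.77 under the hepatocyte scaling. The lower gene was Hnf4a, the nuclear receptor of hepatocyte identity, from 149 to 50.1 RPKM at -1.57, a call lost at -0.41 under the hepatocyte scaling, which Hnf4a as a marker helps to set. Among 14 feedback inhibitors and early targets, 1 was lower and 3 were higher, against 2 and 2 with the median gene at no difference and none and 7 under the hepatocyte scaling. Socs3, the main STAT3 feedback inhibitor, stood at 18.1 and 16.4 RPKM, a difference of -0.14 that became 1.02 under the hepatocyte scaling. Tnfaip3, which restrains NF-kB, was higher at 2.92 and 7.48 RPKM. These are levels of mRNA, and the activity of the proteins was not measured.

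The list of receptors, carriers and other partners of the encoded proteins held differences in both directions. Of 21 compared, 6 were lower and 7 higher, with a median of 0.28. The 6 lower were the plasma proteins Apoa1, Apoa2, Lcat, Hpx and Crp and the haemoglobin gene Hbb-bt, and no receptor compared was lower. With the median gene at no difference 6 were lower and 3 higher, and under the hepatocyte scaling none was lower and 13 were higher, where 74.9% of all genes were higher. Cd163, the macrophage receptor that takes up haptoglobin with haemoglobin, was at 34.1 and 37.2 RPKM, and Hmox1, which breaks down the haem, was higher at 40.6 and 103.9 RPKM. For serum amyloid A, the receptor Scarb1 was at 42.0 and 41.9 RPKM, Tlr4 was higher at 3.93 and 9.13 RPKM and Cd36 was higher at 19.7 and 70.6 RPKM, and the call of Tlr4 was lost at 0.90 with the median gene at no difference. Fcgr1 and Fcgr3, which bind pentraxins, were higher with differences of 1.30 and 1.82, of which the first missed the call at 0.995 under that scaling.

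Within 100000 bases of the 5 places 17 other genes were above 0 in both libraries, and 1 of them was lower and 1 higher. Over all genes the shares were 5.48% and 14.3%, so nothing particular to these places is read from the count. Slc25a25, a mitochondrial carrier 26748 bases from Lcn2, was lower from 60.9 to 16.3 RPKM, and Akna, 1246 bases beyond the orosomucoid genes, was higher from 3.13 to 7.17 RPKM. Slc25a25 missed the call at -0.73 under the hepatocyte scaling, and Akna missed it at 0.87 with the median gene at no difference and at 0.98 with 1 RPKM added. At the serum amyloid A and orosomucoid clusters the 6 neighbours compared ranged from -0.73 for Ldha to 1.17 for Akna. Of 1443 unannotated lncRNAs, 1 lay within the same distance of any of the 10 genes. This transcript, TCONS_00057521 at chr4:63339211-63340233 on the plus strand by the deposited coordinates, lies 4323 bases from the orosomucoid cluster on the side of Orm1. It had 34 reads with oil and 7 reads with CCl4, in a table whose own library totals were 62438205 and 70960848 reads. Relative to these totals the log2 ratio was -2.46, with a wide 95% counting interval of -3.88 to -1.27.

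Under every other way of handling the values Saa2 stayed the lowest of the 10 genes and Saa3 the only one above 0. Saa2 ranged from -6.95 to -5.49 and Saa1 from -6.00 to -4.54. Orm2 ranged from -4.51 to -3.05 and Saa3 from 1.76 to 3.23.

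**Figure D5:**
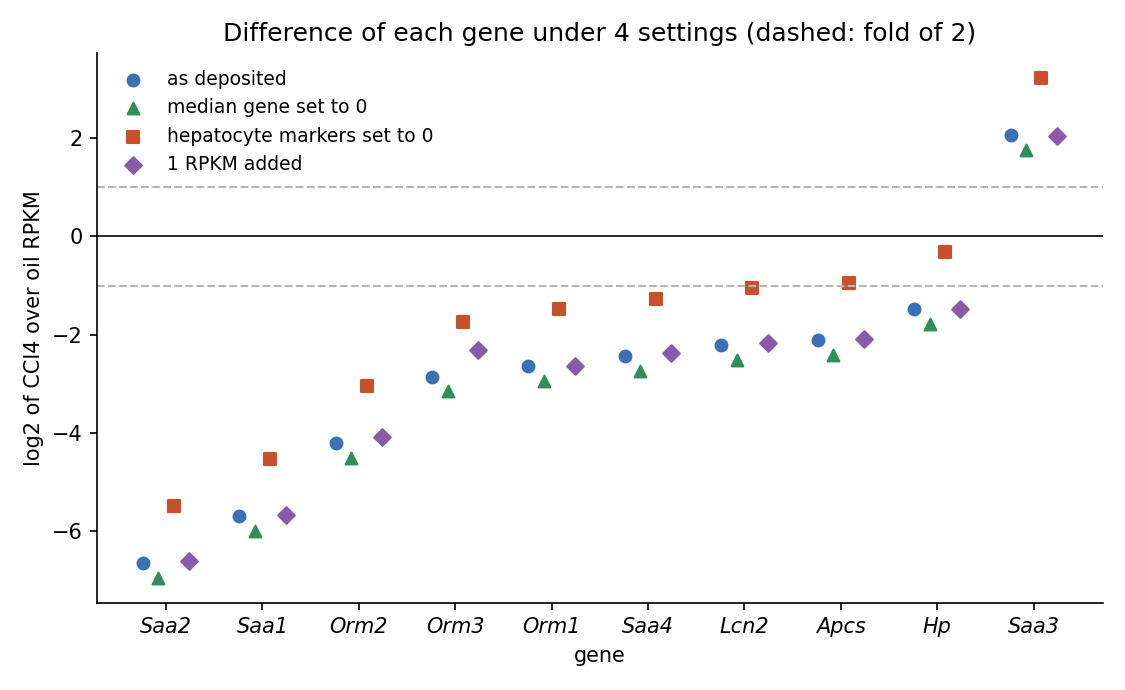
Log2(CCl4/oil) of the level of each of the 10 genes as deposited (circles), with the median gene set to 0 (triangles), with the hepatocyte markers set to 0 (squares) and with 1 RPKM added (diamonds), and dashed lines at a fold of 2. Only Hp and Apcs cross a dashed line, at -0.32 and -0.96 with the hepatocyte markers set to 0.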

How the data were processed

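RNA-seq of primary mouse hepatocytes was analysed from 1 oil and 1 CCl4 library. Per the labels, the authors used CASAVA 1.4, TopHat2 and mm10, as the submitters' processing notes name them. The counting program and its use of strand are not given in the sources used here. The deposited mRNA and lncRNA tables hold RPKM made by the authors, with values under 1 RPKM listed as 0. A deposited table of unannotated lncRNAs holds whole read counts, which are not normalized, and RPKM without a lower limit. The deposited tables also hold the authors' own log2 changes, p-values and q-values, which were not used.

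RefSeq identifiers of 27049 of 27457 mRNA entries were paired with symbols through a RefSeq table of GRCm38.p6, which also gave positions and promoters. A gene was its entry of highest mean RPKM. The 10 genes, the lists, the motifs and the promoters shown were chosen with earlier results of these data known, and the motif letters with the promoters in view. Named genes are the 10 genes, genes of the lists and the nearest genes in level. Slc25a25, Akna, Ldha, TCONS_00057521 and Reg3b are named outside this rule, after their values were seen.

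Read numbers were recovered as lower bounds from RPKM steps: 184 of 190 and 199 of 205 genes under 400 bases gave whole reads within 0.03 reads. Intervals are exact Clopper-Pearson 95% intervals and cover counting error only. The scripts were tested on simulated data. The planned test was a fold of 2 without p-values, since 1 library per group allows none. Alternatives were other pseudocounts, scalings, filters and folds, and the sum of a gene's entries. Python 3.11.15, numpy 2.4.6, pandas 2.3.3, scipy 1.17.1, matplotlib 3.10.9 and Biopython 1.88 were used.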

Additional observations from a re-analysis of the deposited data

How the results depend on the processing

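Saa2, Saa1, Orm2, Orm3, Orm1, Saa4 and Lcn2 were called lower and Saa3 higher under each alternative tried, the folds of 4 and 1.5 included. Of the 10 genes 9 were lower under every alternative but 2: 7 with the hepatocyte markers set to no difference, where Hp and Apcs missed the call, and 8 at a fold of 4, which Hp missed. The median difference of the 10 genes, -2.54 as reported, was -2.35 with 1 RPKM added, -2.84 with the median gene set to no difference, and -1.38 with the hepatocyte markers set so. These last scalings shift every gene by -0.30 and 1.17. Under them the Saa1 and Saa2 sum, at -6.15, was at -6.45 and -4.98, and the orosomucoid sum, at -2.79, at -3.10 and -1.63. Over all genes the 586 lower and 1527 higher became 1038 and 854 with the median gene at no difference, 52 and 8001 with the hepatocyte markers, 75 and 188 at a fold of 4, and 1288 and 3367 at a fold of 1.5. Of the named genes called as deposited, Rbp4 and Il1r1 changed sign with the hepatocyte markers set to no difference, at 0.10 and 0.063, and genes closer to 0, such as Alb and Stat3, changed sign too. No paired analysis was possible because each group has 1 library, and for the same reason no replicate could be left out. Depth limits Orm3, whose counting interval is the widest of the 10 genes, and genes under 1 RPKM, which are listed at 0.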

Other observations

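In the plane of the levels of the 2 libraries, Saa1 and Saa2 had no near company among genes outside the 10, to which the search was limited. The nearest such gene to Saa1 was Car3, a carbonic anhydrase of liver and muscle, from 711 to 117 RPKM, at a distance of 2.21 on the log2 scale. Mup3, a major urinary protein, followed at 2.25 and Mt2 at 2.25. The nearest such gene to Saa2 was Selenbp2, from 491 to 19.5 RPKM, at 2.62. Orm2 had closer company, with the sulfotransferase Sult2a8 at 0.643, the neutrophil chemokine Cxcl1 at 0.660 and Keg1 at 0.984. The genes nearest to Lcn2 were the carboxylesterase Ces3b at 0.242, the ornithine aminotransferase Oat at 0.247 and the steroid dehydrogenase Hsd17b2 at 0.279. Likeness over 2 libraries says only that the levels were alike.

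Cxcl1 and Reg3b, a secreted lectin of injured epithelia, were also looked at, a choice made after their values were seen. Cxcl1, which hepatocytes can make in inflammation, went from 105 to 9.27 RPKM and had the rank 16 of all decreases. Reg3b went from 40.4 to 5.93 RPKM and had the rank 24.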
